A study of Mus musculus with 14 samples.

Results

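The genes described here are 44 genes of mitosis and the kinetochore, from the kinases and cyclins that start mitosis to the motors and scaffolds that end it. They were chosen by name, and each was read from 1 array probe that was well above background, namely the probe with the highest mean signal of that gene. All 44 were found and were well above background on all 14 arrays, out of 24908 genes tested. The arrays hold RNA of splenocytes, 1 mouse per array, from 7 wild-type (WT) and 7 Sting gt/gt mice. The WT mice are labelled C57BL/6, and the labels give 10 to 14 weeks as the age of both groups, which by the study's methods is the age at the first injection. The gt (golden ticket) allele is a chemically induced mutation, made on the C57BL/6 background, of the gene for Sting, an adaptor in the sensing of cytosolic DNA, and it is carried in every cell of the mouse. The 2 groups of mice came from different sources, which cannot be told apart from the genotype. Mice of both genotypes had been injected with complete Freund's adjuvant (CFA) and type II collagen (CII) 2 weeks before, so that the comparison asks how the immunized spleen differs without functional Sting, and no uninjected mice were among these samples. The splenocytes were not sorted, and the markers of B cells, T cells and macrophages used below were well above background on all 14 arrays.

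Mitosis is entered when Cdk1, bound to a B-type cyclin and freed of its inhibitory phosphates by Cdc25 phosphatases, phosphorylates its targets. Spindle microtubules then attach to the kinetochores built on the centromeres, the spindle checkpoint holds back the anaphase promoting complex (APC/C) until all are attached, and separase then cuts the cohesin that holds sister chromatids. Most of these genes are transcribed mainly late in the cell cycle, so that in the spleen their RNA comes from dividing cells such as activated lymphocytes, plasmablasts and the erythroid and myeloid precursors that the mouse spleen houses.

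Levels are given as log2 signal, which is the log2 intensity of a spot minus the 75th percentile of its array, so that 0 stands for that percentile and a difference of 1 is a 2-fold change. Replicates 1 to 3 of each genotype were scanned on one day (scan day 1) and replicates 4 to 7 on another (scan day 2). The 75th percentile lay between 562.0 and 766.1 intensity units, and arrays correlated with each other at 0.962 to 0.993. The 2 scan days differed at an adjusted p under 0.05 in 38.8% of all genes and in 5 of the 44. Aurkb, the kinase of the chromosomal passenger complex, was higher on scan day 2 by 1.1, Cdk1 by 0.70 and the cytokinesis scaffold Anln by 0.51, while Spc24 of the Ndc80 complex differed by -0.50 and the APC/C activator Fzr1 by -0.52. Scan day stands for whatever else differed between the 2 sets of mice and cannot be told apart from it.

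The 44 genes went up and down together from mouse to mouse. Their mean log2 signal per array was 3.70, 3.21, 3.73, 3.40, 3.65, 3.82 and 3.23 in WT replicates 1 to 7, and 3.77, 3.39, 2.95, 3.56, 3.65, 3.37 and 3.08 in Sting gt/gt replicates 1 to 7. The genotypes overlapped between 3.21 and 3.77, with WT replicate 6 the highest and Sting gt/gt replicate 3 the lowest, 0.87 apart. On scan day 1, all 44 genes lay above or at their own mean of that day in WT replicate 1, WT replicate 3 and Sting gt/gt replicate 1, and all 44 lay below it in Sting gt/gt replicate 3, by a median of 0.51. On scan day 2, all 44 lay above their mean in WT replicate 6, by a median of 0.36, while 40 lay below it in WT replicate 7 and 43 in Sting gt/gt replicate 7. Both genotypes thus had high and low mice on each day.

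**Figure D1:**
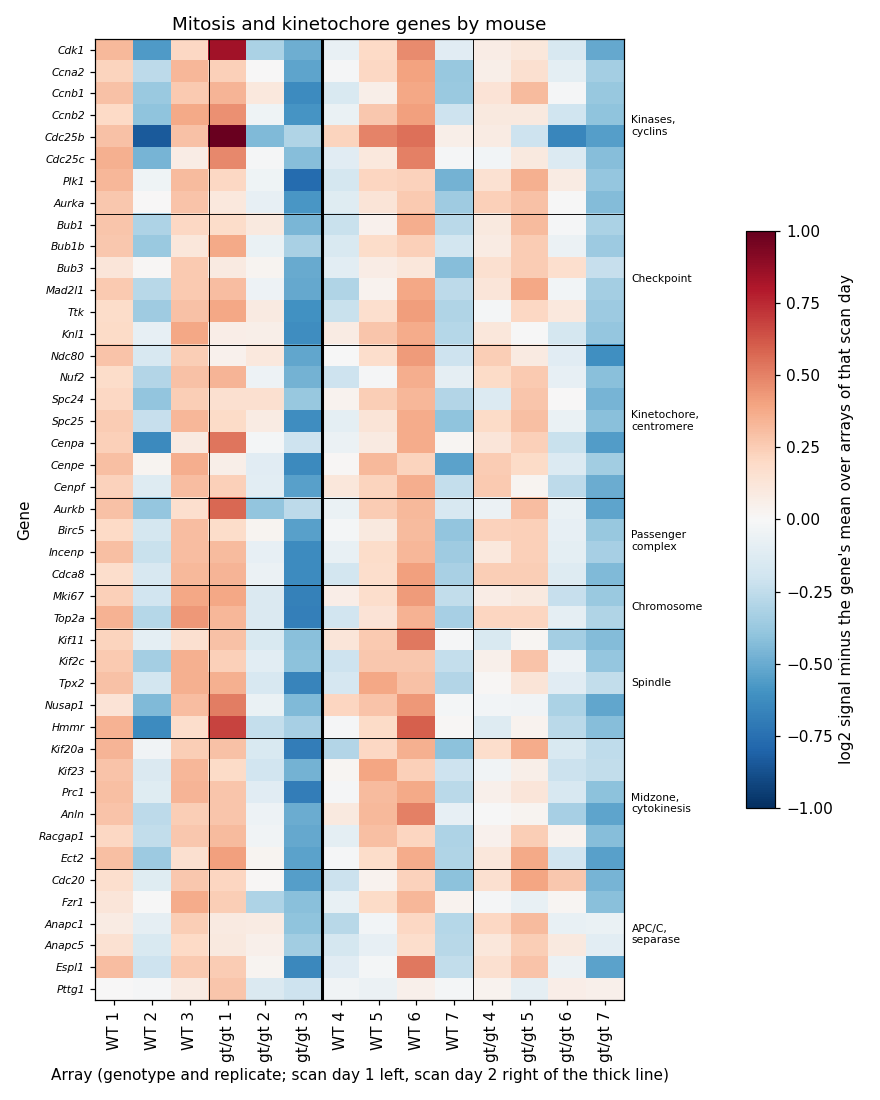
Each row is 1 of the 44 genes, grouped by role, and each column 1 mouse (gt/gt stands for Sting gt/gt); colours give the log2 signal minus that gene's mean over the arrays of the same scan day. Whole columns are red or blue, as in WT 6, where all 44 genes lay above their mean, and gt/gt 3, where all 44 lay below.

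After the mean of each genotype on each scan day was removed, the median correlation between 2 of the genes over the 14 arrays was 0.91, over 946 pairs. All but 1 of the 44 had a correlation of at least 0.8 with the mean of the others, against 11.2% of 24853 other genes. The median was 0.96 for the 44 and 0.01 for the rest. These values describe points that share the RNA, the array and its scaling. Without Sting gt/gt replicates 1 and 3, the arrays with the highest and lowest mean of their genotype, the median over pairs was 0.90 and 43 genes again reached 0.8. On scan day 1 alone the median was 0.94, although 21.8% of the other genes reached 0.8 there, and on scan day 2 alone it was 0.90, with 42 of the 44 and 11% of the rest.

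The gene that stood apart, as read from its chosen probe, was Pttg1, which encodes securin, the inhibitor of separase. Its correlation with the mean of the others was 0.49, and its span over the 14 arrays was 0.48, the smallest of the 44. Its 7 WT arrays lay between 4.81 and 4.94, and its 7 Sting gt/gt arrays lay between 4.62 and 5.10. A second Pttg1 probe, not used for these values, correlated with the chosen probe at only 0.55 over the 14 arrays. Cdc25b, a phosphatase that activates Cdk1, had the widest span at 1.90 and the next lowest correlation at 0.80, followed by Fzr1 at 0.85 and Aurkb at 0.87. At the other end, Top2a (topoisomerase II alpha, which untangles sister DNA), Anln and Incenp, the scaffold of the passenger complex, each reached 0.99.

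Genes expressed late in the cell cycle often carry 2 promoter elements, the cell cycle genes homology region (CHR), which is bound by the MuvB complexes, and CCAAT boxes, which are bound by NF-Y. Since the genes moved together, their RefSeq promoter windows (GRCm38.p6, 250 bases before to 50 after the gene start) were searched on both strands for TTTGAA (the CHR), for its variant TTCGAA, for CCAAT and for TATAAA. Each start of a match was counted, and TTCGAA is its own reverse complement. No other variant of the CHR was searched for, so a gene without TTTGAA is not shown to lack a CHR. Windows were at hand for 37 of the 44 genes, 40 windows in all; Ccna2, Cdc25c, Aurkb, Spc24, Incenp, Kif20a and Tpx2 had none.

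TTTGAA was present in the windows of 25 of the 37 genes, that is in 70.0% of their windows against 17.9% of all 32851 windows. CCAAT was found for 27 genes, in 75% of their windows against 37.4% of all. Both stood together for 21 genes, in 60.0% of their windows and 6.95% of all. A pair of CCAAT starting 31 to 34 bases apart was seen for 7 genes, in 17.5% of windows against 1.2% of all. TTCGAA was found for 4 genes, in 10.0% of windows against 1.56% of all, and TATAAA for 1 gene, in 2.5% against 13.6%. The first base of TTTGAA lay at a median of 2 bases from the start, between -179 and 40, and that of CCAAT at -55, between -227 and 18. These are matches of letters, not binding sites, and only 6 of the 37 genes held none of the first 3 motifs.

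**Figure D2:**
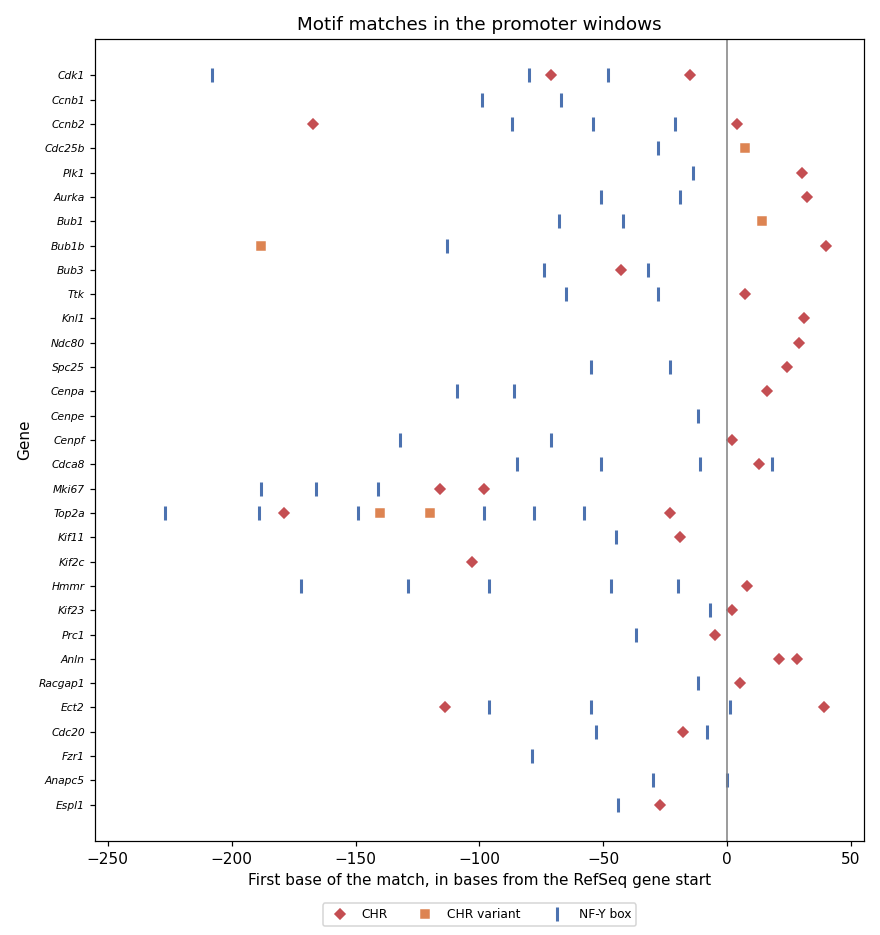
Position of each motif match (horizontal axis, bases from the RefSeq gene start, 0 at the line) in the promoter window of each gene with a match; diamonds are the CHR, squares its variant and bars the NF-Y box, in the first window listed for a gene. The CHR matches gather around the start (median 2) and the NF-Y boxes before it (median -55).

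The stretches that end just before the start of 7 genes show the range of arrangements, read 5′ to 3′ along the gene with the motifs in capitals (TTTGAA, which reads TTCAAA on the other strand, its variant TTCGAA, and the box CCAAT, which reads ATTGG on the other strand). Kif11 is shown because its genotype difference was the largest, and Cdk1, Top2a, Mki67 and Ccnb1 as reference genes of mitosis. Cdc20 is shown for its TTTGAA next to a CCAAT, and Pttg1 because its chosen probe followed the rest least. Kif11 holds 1 TTTGAA after 1 CCAAT, Top2a holds 2 TTTGAA, 2 of the variant TTCGAA and 5 CCAAT boxes, Ccnb1 holds 2 CCAAT and no TTTGAA, and the Pttg1 stretch holds none of them.
Kif11, chr19:37376262-37376381, plus strand: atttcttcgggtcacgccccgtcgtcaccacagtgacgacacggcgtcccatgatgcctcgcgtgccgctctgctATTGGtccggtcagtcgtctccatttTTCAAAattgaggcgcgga
Cdk1, chr10:69352913-69353032, minus strand: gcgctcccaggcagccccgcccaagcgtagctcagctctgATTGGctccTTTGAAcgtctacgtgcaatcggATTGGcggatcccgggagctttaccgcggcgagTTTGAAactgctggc
Top2a, chr11:99024190-99024389, minus strand: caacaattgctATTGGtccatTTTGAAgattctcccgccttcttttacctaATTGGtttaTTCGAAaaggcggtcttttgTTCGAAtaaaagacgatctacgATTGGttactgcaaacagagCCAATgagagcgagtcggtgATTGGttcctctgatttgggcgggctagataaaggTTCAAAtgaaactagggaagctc
Mki67, chr7:135716380-135716579, minus strand: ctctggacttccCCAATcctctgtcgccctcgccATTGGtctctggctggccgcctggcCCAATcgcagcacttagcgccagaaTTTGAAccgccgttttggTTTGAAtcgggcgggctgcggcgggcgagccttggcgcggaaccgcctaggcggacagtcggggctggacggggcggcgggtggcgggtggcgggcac
Cdc20, chr4:118437344-118437463, minus strand: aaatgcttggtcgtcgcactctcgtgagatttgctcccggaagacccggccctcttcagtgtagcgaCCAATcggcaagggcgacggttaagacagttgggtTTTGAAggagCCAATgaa
Ccnb1, chr13:100786487-100786606, minus strand: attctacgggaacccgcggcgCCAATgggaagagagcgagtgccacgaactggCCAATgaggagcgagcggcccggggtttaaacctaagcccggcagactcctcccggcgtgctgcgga
Pttg1, chr11:43425982-43426101, minus strand: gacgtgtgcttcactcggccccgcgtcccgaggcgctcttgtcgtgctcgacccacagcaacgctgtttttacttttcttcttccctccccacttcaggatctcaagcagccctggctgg

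The 25 genes with TTTGAA had a median correlation of 0.96 with the mean of the others, and so had the 12 without it, among them Ccnb1 at 0.98. The lowest correlation was 0.89 among the former and 0.49, that of Pttg1, among the latter, which also held Cdc25b and Fzr1. Between genotypes, 24 of the 25 and 9 of the 12 were below 0, with medians of -0.13 and -0.05. These differences between the gene groups were not tested.

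Between genotypes, the mean level of 41 of the 44 genes was lower in Sting gt/gt than in WT mice, by small amounts. The median difference (Sting gt/gt minus WT) was -0.12 on the log2 scale, with a range from -0.34 to 0.05, against a median of 0.02 over all genes, of which 44.2% were below 0. Since the genes moved together between mice, 41 of 44 is not 41 separate observations. The mean over the 44 genes was 3.53 ± 0.25 (SD, n = 7) in WT and 3.40 ± 0.30 (SD, n = 7) in Sting gt/gt mice, a difference of -0.14 that is smaller than the spread within either genotype. In limma fitted over all 24908 genes, 1 of the 44, Kif11, passed an unadjusted p under 0.05, which is 2.27% of them, where 3.54% of all genes passed, 1.63% as lower. None passed after Benjamini-Hochberg adjustment over all genes, as 0.00401% of all genes did, the lowest adjusted p of the 44 being 0.999, and for none of the 44 did the 2 genotypes separate without overlap, which 0.0482% of all genes did.

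In bulk RNA such as this, fewer dividing cells and less RNA per dividing cell cannot be told apart. With the replicate number as a block, 4 of the 44 genes passed the unadjusted threshold, namely Kif11, Kif23, Anln and Fzr1, all lower in Sting gt/gt mice, where 5.65% of all genes passed. With scan day in the model it was Kif11 and Fzr1, where 7.24% of all genes passed, 3.37% as lower. In the log2 table that the authors deposited, whose normalization is not given in the sources used here, 7 passed, all lower, where 7.74% of all genes passed. The count also turned on single mice. With 1 mouse left out at a time it was 6 (Sting gt/gt replicate 1, where 7.88% of all genes passed) or 5 (WT replicate 2 with 4.05% and WT replicate 7 with 3.83%). It was 2 (Sting gt/gt replicate 4 with 2.73% and replicate 5 with 2.13%) or 0 (WT replicate 6 with 2.84% and Sting gt/gt replicate 7 with 3.65%). For the other 7 mice it was 1 (1.98% to 5.09% of all genes). The number of genes below 0 dropped to 30, with a median of -0.044, once Sting gt/gt replicate 3 was left out. Blocking on slide compares the genotypes on the 5 arrays of the 2 slides that held both. These arrays were all of scan day 1 and did not include Sting gt/gt replicate 3. With this block 21 of the 44 were below 0 and none passed, where 3.55% of all genes passed.

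**Figure D3:**
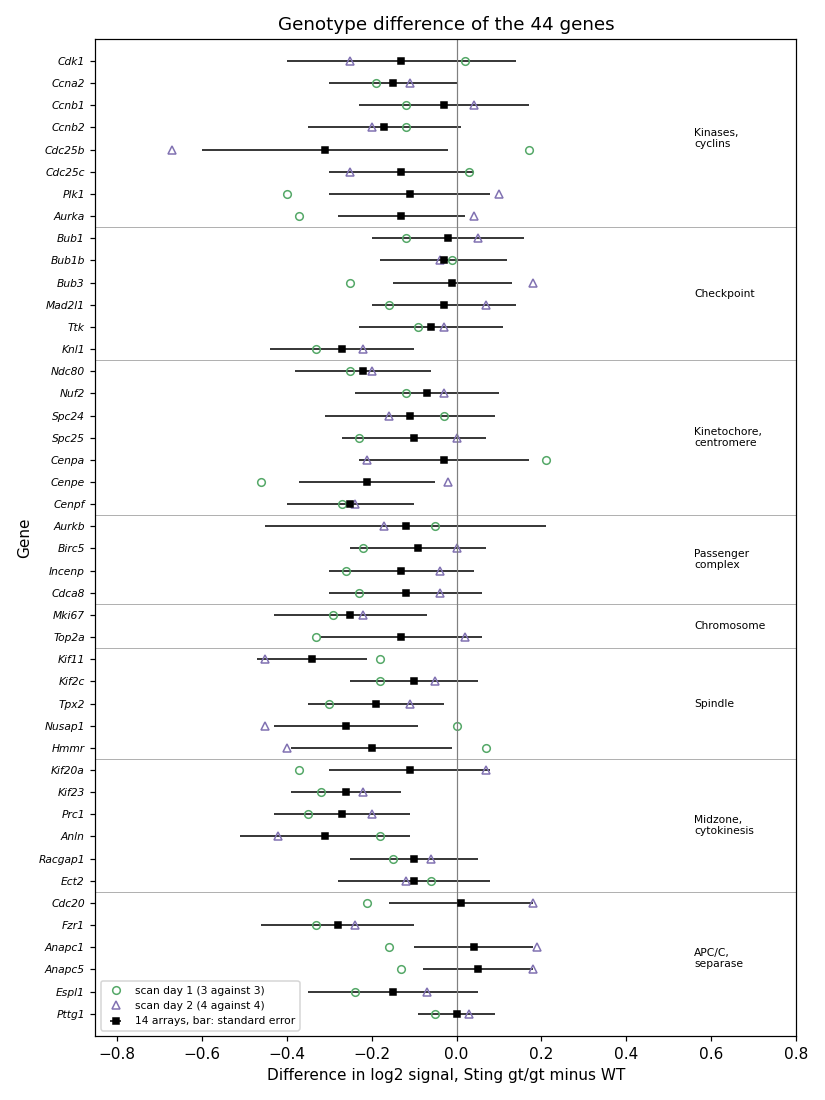
Difference in log2 signal (Sting gt/gt minus WT, horizontal axis) of each of the 44 genes by role; squares with bars are the 14-array differences with their standard error, circles and triangles the differences within scan day 1 and scan day 2. The squares lie between -0.34 and 0.05, and 41 of 44 are below 0.

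The spindle genes had the lowest median of the roles, at -0.20, with 5 of 5 below 0. Kif11, the motor that pushes the spindle poles apart, had the largest difference of the 44. Its log2 signal was 1.33, 1.01, 1.27, 1.14, 1.28, 1.55 and 1.01 in WT replicates 1 to 7 and 1.40, 0.96, 0.69, 0.87, 1.04, 0.68 and 0.59 in Sting gt/gt replicates 1 to 7. All but 2 of the Sting gt/gt mice were below every WT mouse, and Sting gt/gt replicate 1 was above all WT mice other than replicate 6. The means were 1.23 ± 0.19 and 0.89 ± 0.28 (SD, n = 7 each), a difference of -0.34 with a standard error of 0.13 (limma, unadjusted p = 0.0224, adjusted p = 0.999; two-sided exact permutation test, p = 0.0245). It no longer passed once WT replicate 6 or Sting gt/gt replicate 7 was left out (unadjusted p of up to 0.0522 by limma), and the difference was -0.42 when Sting gt/gt replicate 1 was. On the slides that held both genotypes, Sting gt/gt was at 1.40 beside WT at 1.33 and 1.01 on one slide, and at 0.96 beside WT at 1.27 on the other. Blocking on slide, which rests on these 5 arrays, gave a difference of 0.0011.

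Nusap1, which binds spindle microtubules near the chromosomes, ranged in WT mice from 3.31 to 4.31 with a median of 4.06, and in the Sting gt/gt group from 3.31 to 4.27 with a median of 3.69. The lowest arrays of both groups were thus level, and the difference was -0.26 with a standard error of 0.17 (unadjusted p = 0.149, limma). Hmmr, a spindle assembly factor, differed by -0.20, Tpx2, which activates Aurka at the spindle, by -0.19, and Kif2c, a motor that takes microtubules apart, by -0.10, none past the threshold.

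Midzone and cytokinesis genes lay close behind, with a median of -0.19 and 6 of 6 below 0, none past the threshold. Anln, the scaffold of the contractile ring, ranged from 2.77 to 4.05 in WT mice with a median of 3.46 and from 2.54 to 3.57 in the Sting gt/gt group with a median of 3.21, a difference of -0.31 with a standard error of 0.20 (unadjusted p = 0.134). Kif23, the motor of centralspindlin, ranged from 1.45 to 2.09 with a median of 1.88 in WT and from 1.12 to 1.79 with a median of 1.48 in the Sting gt/gt group. Its difference of -0.26 with a standard error of 0.13 was the next smallest in p after Kif11 (unadjusted p = 0.0634 by limma; two-sided exact permutation p = 0.0618). Prc1, which bundles the midzone microtubules, ranged from 4.27 to 4.95 with a median of 4.86 in WT and from 3.92 to 4.89 with a median of 4.50 in the Sting gt/gt group, a difference of -0.27 (standard error 0.16). The WT and Sting gt/gt ranges of all 3 overlapped over most of their length. Kif20a, Racgap1 and Ect2, which act with them at the midzone, had differences of -0.11, -0.10 and -0.10.

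**Figure D4:**
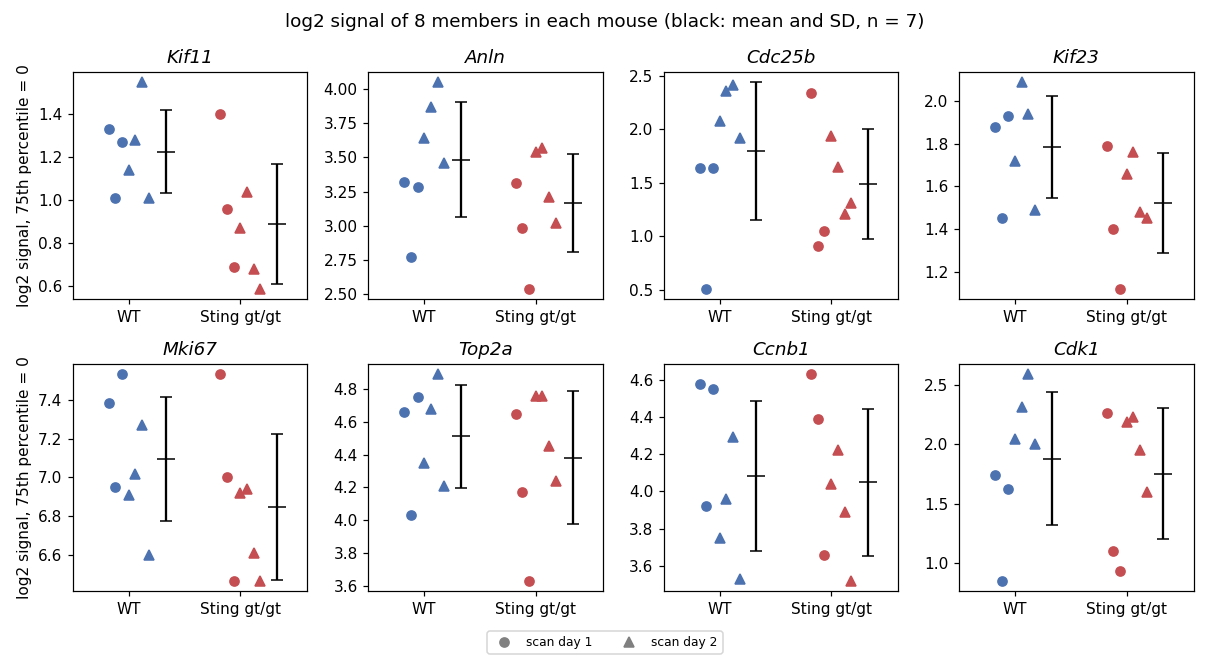
log2 signal (vertical axis, 0 at the array's 75th percentile, scale differing by panel) of 8 genes in each WT (blue) and Sting gt/gt (red) mouse, circles for scan day 1 and triangles for scan day 2, with the mean and SD of the 7 mice in black. The 2 genotypes overlap in every panel; the means are farthest apart for Kif11 (1.23 and 0.89) and nearly level for Ccnb1 (4.08 and 4.05).

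Of the 2 genes of chromosome structure, Mki67, the source of the Ki-67 proliferation marker, ranged from 6.60 to 7.53 with a median of 7.02 in WT mice and from 6.47 to 7.53 with a median of 6.92 in the Sting gt/gt group. The highest mouse of each genotype was at the same level, and the difference was -0.25 with a standard error of 0.18 (unadjusted p = 0.187). Without Sting gt/gt replicate 1 it was -0.36 (unadjusted p = 0.0382 by limma). Top2a ranged from 4.03 to 4.89 with a median of 4.66 in WT and from 3.63 to 4.76 with a median of 4.45 in the Sting gt/gt group. Its difference of -0.13 with a standard error of 0.19 came close to 0 (-0.0049) once Sting gt/gt replicate 3 was left out.

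Among the 8 kinases, cyclins and phosphatases, the median was -0.13 and 8 of 8 were below 0, again with none past the threshold. Cdc25b had the largest value, -0.31, but also the largest spread. In WT mice it ranged from 0.51 to 2.41 with a median of 1.92, and in the Sting gt/gt group from 0.91 to 2.34 with a median of 1.31, so that its standard error was 0.29 (unadjusted p = 0.298). The lowest of the 14 values belonged to WT replicate 2. Without that mouse the difference was -0.52 (unadjusted p = 0.039). Cdk1 ranged from 0.85 to 2.59 with a median of 2.0 in WT and from 0.93 to 2.26 with a median of 1.95 in the Sting gt/gt group, a difference of -0.13 with a standard error of 0.27. Its 3 lowest values were those of WT replicate 2 and Sting gt/gt replicates 2 and 3, all of scan day 1. Ccnb1, a cyclin partner of Cdk1, was nearly level, with a range from 3.53 to 4.58 and a median of 3.96 in WT, a range from 3.52 to 4.63 and a median of 4.04 in Sting gt/gt, and a difference of -0.03 with a standard error of 0.20. The median of Ccnb1 was thus the higher in Sting gt/gt mice while its mean was the lower. Ccnb2 differed by -0.17, Ccna2 by -0.15, the phosphatase Cdc25c by -0.13, and the spindle pole kinases Aurka and Plk1 by -0.13 and -0.11.

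The kinetochore and centromere genes had a median of -0.11, and 7 of 7 were below 0. Of the Ndc80 complex, which holds the microtubule, Ndc80 differed by -0.22, Spc24 by -0.11, Spc25 by -0.10 and Nuf2 by -0.07. Cenpf differed by -0.25, the kinetochore motor Cenpe by -0.21 and the centromeric histone variant Cenpa by -0.03, and none of the 7 passed the threshold. The chromosomal passenger complex, which corrects faulty attachments, had differences of like size, with -0.13 for Incenp, -0.12 for both Aurkb and Cdca8 and -0.09 for Birc5. Their standard errors ranged from 0.16 to 0.33, the widest being that of Aurkb.

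The spindle checkpoint showed nearly level means. Its 6 genes had a median of -0.03, with Bub1 at -0.02, Bub1b and Mad2l1 at -0.03, the checkpoint kinase Ttk at -0.06 and Bub3 at -0.01. Bub3, which brings Bub1 and Bub1b to the kinetochore, ranged from 4.77 to 5.37 with a median of 5.23 in WT and from 4.61 to 5.45 with a median of 5.20 in the Sting gt/gt group. The exception in size was Knl1, the kinetochore scaffold on which they dock. It ranged from 2.95 to 3.95 with a median of 3.51 in WT and from 2.85 to 3.63 with a median of 3.23 in the Sting gt/gt group, a difference of -0.27 with a standard error of 0.17 (unadjusted p = 0.124). The difference between Knl1 and the other checkpoint genes was not tested.

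The APC/C and separase genes held all 3 of the values above 0 and had a median of 0.00. Anapc5, a subunit of the APC/C core, ranged from 6.27 to 6.96 with a median of 6.61 in WT and from 6.41 to 6.86 with a median of 6.66 in the Sting gt/gt group, a difference of 0.05 with a standard error of 0.13. Anapc1, its large scaffold subunit, ranged from 3.49 to 4.01 with a median of 3.66 in WT and from 3.18 to 4.12 with a median of 3.73 in the Sting gt/gt group, a difference of 0.04 with a standard error of 0.14. Both were below 0 without scaling of the arrays, at -0.014 and -0.022. Of the activators, Cdc20, which acts at anaphase, differed by 0.01, while Fzr1, which takes over at mitotic exit and in G1, ranged from 4.48 to 5.44 with a median of 4.88 in WT and from 4.13 to 5.32 with a median of 4.57 in the Sting gt/gt group. The difference of Fzr1 was -0.28 with a standard error of 0.18 (unadjusted p = 0.143). Separase, encoded by Espl1, differed by -0.15, and its inhibitor Pttg1 by 0.00 with a standard error of 0.09. The second Pttg1 probe differed by -0.23 (unadjusted p = 0.121 by limma).

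Further probes were tested for 24 of the 44 genes, 27 probes in all. Of these, 25 were lower in Sting gt/gt mice, where 44.2% of all genes were. None passed an unadjusted p under 0.05, where 3.54% of all genes did. These probes read the same RNA, so that 25 is not a count of separate observations. Their correlation with the chosen probe ran from -0.48 (Anln) to 0.98 (Aurkb). Sizes also differed, with Racgap1 at -0.31 against -0.10 on the chosen probe, and Ccnb1 at -0.14 and -0.15 against -0.03. The 6 genes Anapc1, Knl1, Kif23, Top2a, Ect2 and Kif11 are on the list of changed genes that came with the study, which was drawn from these same samples and is no independent evidence. In the fit used here their differences ran from -0.34 (Kif11) to 0.04 (Anapc1), and Kif11 alone of them passed the threshold. In the log2 table that the authors deposited, Knl1, Kif11 and Kif23 passed it and the others of the 6 did not, where 7.74% of all genes passed.

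The 2 scan days were also taken apart. On scan day 1 (3 against 3), 38 of the 44 genes were below 0 (49.4% of all genes), with a median of -0.18 against 0.00 over all genes, and none passed an unadjusted p under 0.05, where 3.77% of all genes did. This direction rested on 1 mouse, since leaving out Sting gt/gt replicate 3 gave 18 of the 44 below 0 and a median of 0.021. With Sting gt/gt replicate 1 left out instead, 7 genes passed the unadjusted threshold, where 6.25% of all genes did, and the median was -0.36. On scan day 2 (4 against 4), 31 of the 44 were below 0 (44.8% of all genes), with a median of -0.07, and 5 passed, all lower in Sting gt/gt mice. This is 11.4% of the 44, where 23.7% of all genes passed, 11.3% as lower. Quantile normalization gave a median of -0.15 and 38 genes below 0, and no scaling and the deposited log2 table each gave a median of -0.13, with 37 and 38 below 0. Leaving out WT replicate 6 left 20 genes below 0 on that day, as did leaving out Sting gt/gt replicate 7.

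The 5 genes of scan day 2 were Cdc25b and the spindle and cytokinesis genes Nusap1, Kif11, Hmmr and Anln. Cdc25b was at 2.08, 2.36, 2.41 and 1.92 in WT replicates 4 to 7 and at 1.94, 1.65, 1.21 and 1.31 in Sting gt/gt replicates 4 to 7, a difference of -0.67 (limma on these 8 arrays, unadjusted p = 0.00531, adjusted p = 0.0839). A single WT mouse, replicate 7, was below the highest Sting gt/gt mouse. Nusap1 was at 4.09, 4.16, 4.31 and 3.86 in these WT mice and at 3.85, 3.84, 3.56 and 3.36 in the Sting gt/gt mice, a difference of -0.45 (unadjusted p = 0.0125 by limma). It was the 1 gene of the 44 whose genotypes did not overlap on that day, as was so for 15.1% of all genes. Kif11 differed by -0.45 (unadjusted p = 0.0136), Anln by -0.42 (unadjusted p = 0.0367) and Hmmr by -0.40 (unadjusted p = 0.0356). None of the 5 passed after adjustment, as 1.27% of all genes did. When the 4 groups were fitted together on all 14 arrays, Kif11 alone of the 5 passed the unadjusted threshold, where 22.7% of all genes did. On this day the 4 Sting gt/gt arrays lay on 1 slide and the 4 WT arrays on 2 others, so that the genotypes cannot be told apart from their slides.

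The test of the difference between days called none of the 44 genes at an unadjusted p under 0.05, where 18.4% of all genes passed it. The median of the difference, scan day 2 minus scan day 1, was 0.10. The lowest p belonged to Bub3, which differed by -0.25 on scan day 1 and 0.18 on scan day 2 (difference 0.43, unadjusted p = 0.106 by limma; exact permutation within scan days, p = 0.107). It was followed by Cdc25b with 0.17 and -0.67 (difference -0.84, unadjusted p = 0.111; exact permutation p = 0.189), and by Anapc5 with -0.13 and 0.18 and Anapc1 with -0.16 and 0.19. Bub3, Anapc5 and Anapc1 thus had the same order of signs, and Cdc25b the opposite one.

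The rest of the machinery was read from lists of other genes. Of 34 further kinetochore and centromere genes, 26 were below 0 with a median of -0.05, and none passed an unadjusted p under 0.05. Of 37 further spindle and cytokinesis genes, 26 were below 0 with a median of -0.08, and of 15 further APC/C genes 6 were below 0 with a median of 0.03, none passing in either list. Of 21 condensin and cohesin genes, 16 were below 0 with a median of -0.10, and 1 passed, the cohesin regulator Pds5a (-0.26, standard error 0.11, unadjusted p = 0.0268, adjusted p = 0.999 by limma). Among 24 genes of cell cycle transcription control and 25 of G1 and CDK control the medians were -0.09 and -0.07 and none passed. In all 6 lists the mean of the list followed the mean of the 44 genes over the 14 arrays, with correlations of 0.97 to 0.99 after the genotype and day means were removed. The APC/C genes thus had a median near 0 between genotypes and still moved with the mitosis genes between mice.

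Markers of the cell types that could hold dividing cells were set beside the 44 genes. After the genotype and day means were removed, the erythroid precursor markers followed them most closely of the 7 marker lists. The correlation between the 2 means was then 0.95 over the 14 arrays, 0.98 on scan day 1 and 0.94 on scan day 2. Without Sting gt/gt replicates 1 and 3 it was 0.94. The correlation of the levels before this removal was not computed. Of the 16 markers, 15 were tested and all 15 were well above background on every array. Their mean log2 signal ranged from 4.90 to 5.53 in WT and from 4.56 to 5.62 in the Sting gt/gt group, a difference of -0.29. The log2 of their summed signal, in which the brightest markers weigh most, ranged from 10.47 to 11.37 and from 10.48 to 11.31. It was nearly level, with means of 10.88 and 10.87 and a difference of -0.01. Between genotypes 12 of 15 were below 0 and 3 above it, by up to 0.12, with a median of -0.34. An unadjusted p under 0.05 was passed by 4, all lower in Sting gt/gt mice, where 1.63% of all genes passed as lower. Among these were the blood group protein Kel at -0.54 and the transferrin receptor Tfrc at -0.52, which other dividing cells also carry, neither past adjustment (adjusted p = 0.999 for each, limma). On scan day 1 alone, none of the 15 passed, where 3.77% of all genes did, and their median difference was -0.18. On scan day 2 alone, 10 of the 15 passed as lower, where 11.3% of all genes did, and 1 passed as higher. The genotypes lay on separate slides on that day and cannot be told apart from them. The part of erythroid precursors in the levels of the mitosis genes was not tested.

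**Figure D5:**
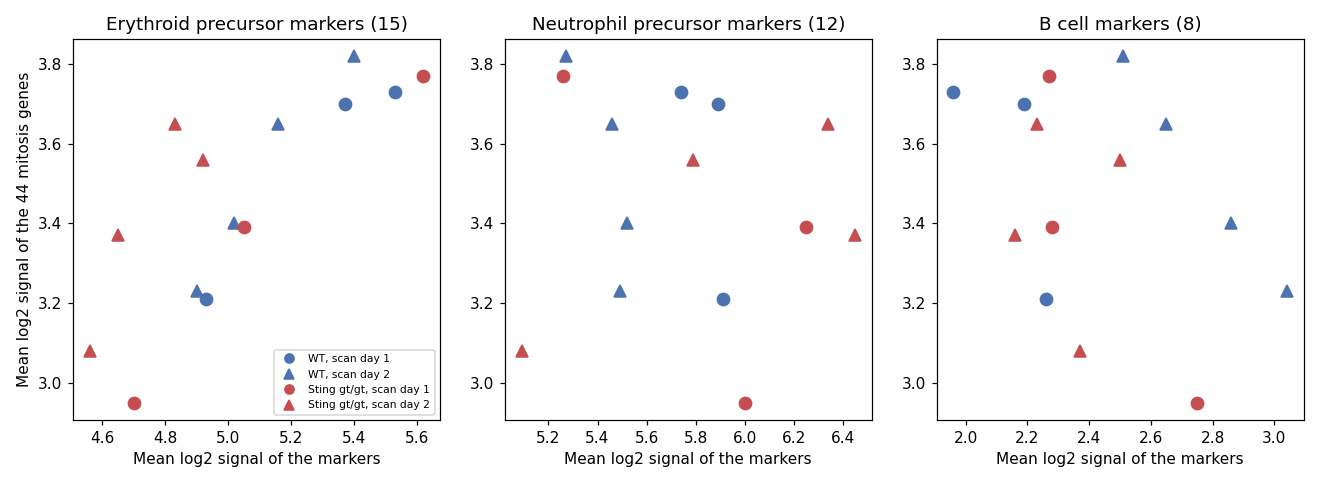
Mean log2 signal of the 44 mitosis genes (vertical axis) against that of 3 marker lists (horizontal axes) in each mouse; blue is WT, red Sting gt/gt, circles scan day 1 and triangles scan day 2. Within a genotype and scan day, the mitosis genes are mostly high where the erythroid markers are high. There they are also mostly low where the B cell markers are high. Correlations with the neutrophil precursor markers, after the genotype and day means were removed, were -0.62 on scan day 1 and 0.37 on scan day 2.

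The other lists moved differently. All 12 neutrophil precursor markers had the higher mean in Sting gt/gt, the median difference being 0.28, with none past an unadjusted p under 0.05. On scan day 2 alone, 3 of the 12 passed as higher, as 3104 of 24908 genes did. After the genotype and day means were removed, the mean of the list had a correlation of -0.05 with that of the mitosis genes. Their mean ranged from 5.27 to 5.91 in WT and from 5.09 to 6.45 in the Sting gt/gt group. By day it was -0.62 and 0.37. For the other lists the genotype and day means were removed as well. Over all arrays the correlation with the mitosis genes was 0.24 for 9 tested germinal centre B cell markers and -0.48 for 8 plasma cell markers. Values of -0.72, -0.52 and -0.39 were found for 8 B cell, 8 T cell and 8 macrophage markers. On scan day 1 and scan day 2 these were 0.29 and 0.24, -0.65 and -0.49, -0.84 and -0.61, -0.80 and -0.35, and 0.02 and -0.78, in the same order of lists. The mean of the B cell markers ranged from 1.96 to 3.04 in WT and from 2.16 to 2.75 in the Sting gt/gt group, with a median difference of -0.18 and none past the threshold. The B cell markers ran opposite ways on the 2 days. On scan day 1 their median difference was 0.24, with 7 of 8 above 0, and 1 passed an unadjusted p under 0.05 as higher (639 of 24908 genes). On scan day 2 the median difference was -0.47, and 5 of 8 passed as lower (11.3% of all genes). The test of the difference between days passed for 7 of these 8 markers (18.4% of all genes) and for none of the 44 mitosis genes, whose medians were -0.18 and -0.07. Over 14 arrays none of the 8 plasma cell markers passed (median difference 0.12). On scan day 1, 1 passed as lower (1.2% of all genes). On scan day 2, 4 passed as higher (3104 of 24908 genes) and 2 passed adjustment (1.27% of all genes), with the genotypes on separate slides. The test of the difference between days passed for 4 (18.4% of all genes), and for 1 after adjustment (122 of 24908 genes). The correlations describe 14 arrays that share the scaling to a common percentile.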

How the data were processed

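The measurements were RNA levels of splenocytes on 14 one-colour Agilent arrays (7 WT, 7 Sting gt/gt; 1 mouse each). The authors deposited intensity values that, per the file headers, come from Agilent Feature Extraction 11.0.1.1 with the background of each spot subtracted and no scaling between arrays. They also deposited a table of log2 values, whose normalization is not given in the sources used here and which correlated with the log2 intensity of its array at 0.997 to 0.999 (column medians 5.49 to 5.52); it runs the same way as the scanner values, and its scaling is unknown. The outlier and well-above-background flags were used as deposited.

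From the scanner files, log2 processed intensity minus the array's 75th percentile over probes was taken, control spots and 11 flagged values were left out, and repeated spots averaged. The 31766 probes that were well above background on 7 or more of the 14 arrays were kept and named by accession through RefSeq, and a gene was read from its brightest probe, which gave 24908 genes, 14725 with a symbol. WT and Sting gt/gt mice were compared by limma 3.58.1 (lmFit, eBayes) in R 4.3.3 without covariates, calling an unadjusted p under 0.05, with Benjamini-Hochberg adjustment over all genes beside it. For single genes a two-sided exact permutation test was added (3432 groupings of the arrays; 1400 groupings within scan days for the difference between days). Covariation was computed on residuals from the genotype by scan day means. Figures were drawn with matplotlib 3.10.9. The fit was tested on simulated data.

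The genes and lists were chosen with earlier results of these data known. By the rule for named genes, values over the arrays (each array for Kif11, otherwise lowest, median and highest) are given for genes past the threshold, the 8 largest differences, Mki67, Top2a, Ccnb1 and Cdk1, and the 4 lowest p in the test between days. The deviation from the group mean correlated between the WT and the Sting gt/gt array of a number at 0.16 to 0.53 in every pair, so the fit with the number as a block is given beside the fit without it, from which all other values come. Once the scan day was removed the values were -0.41 to 0.25. Alternatives were other scalings, background correction, probe choices, tests, blocks, and each array left out in turn. Not every marker that passed the threshold is reported here by name. The number of arrays limits the precision, and no replicate arrays of a mouse were measured.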

Additional observations from a re-analysis of the deposited data

Results flagged for a closer look

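In 2 of 88 combinations of a gene and a genotype, 1 mouse lay far from the other 6 of its group. Cdc25b was at 0.51 in WT replicate 2, with a gap to the next mouse that was 0.592 of the group's whole range, and Cenpe was at 4.01 in WT replicate 7, with a gap of 0.576, both above the critical value of Dixon's ratio for 7 samples. Chance alone sets apart about 1 in 20 groups, and these genes are not independent. Both arrays were low for most of the 44 genes as well, with 41 below their mean of the scan day in WT replicate 2 and 40 in WT replicate 7.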

How the results depend on the processing

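In the comparison over 14 arrays, the number of the 44 genes past an unadjusted p under 0.05 was 1, and it was (with the share of all genes that passed) 3 with quantile normalization (3.81%), 2 without scaling (3.06%), 2 with normexp background correction (3.2%), 7 in the authors' table (7.74%), 2 with the mean of a gene's probes (3.68%), 4 with an intensity trend and array weights (17.7%), 4 with the replicate block (5.65%), 2 with scan day as a term (7.24%), and 0 with slide as a fixed (3.55%) or as a random block (1.76%). Without Sting gt/gt replicates 1 and 3 together, an alternative chosen after seeing the data, it was 2, and the share of all genes was not computed. Leaving out 1 array at a time gave 0 to 6 genes past it (1.98% to 7.88% of all genes), 30 to 43 genes below 0 and medians from -0.2 to -0.044. The lowest count of calls came without WT replicate 6 or Sting gt/gt replicate 7, and the highest without Sting gt/gt replicate 1; it was 5 without WT replicate 2 and without WT replicate 7. With slide as a fixed block, whose difference rests on 5 arrays of scan day 1, 21 genes were below 0, with a median of 0.0049. With slide as a random block 35 were, with a median of -0.086. The cause of these shifts was not tested. The direction turned with slide as a fixed block for Kif11 (0.0011), Anln (0.026), Cdc25b (0.41), Nusap1 (0.22), Ccnb1 (0.15), Cdk1 (0.32), Anapc5 (-0.0058) and Anapc1 (-0.023), with slide as a random block for Ccnb1 (0.041) and Anapc1 (-0.039), without scaling for Anapc5 (-0.014) and Anapc1 (-0.022), and for Bub3 with array weights (0.091) and without Sting gt/gt replicates 1 and 3 (0.094). With 1 array left out, Ccnb1 ranged from -0.13 to 0.056, Cdk1 from -0.3 to 0.0065, Bub3 from -0.073 to 0.084, Anapc5 from -0.011 to 0.1 and Anapc1 from -0.027 to 0.13.

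On scan day 1, 1 gene (Cenpe) passed with median centring, quantile normalization, no scaling and in the authors' table (2.39% to 3.99% of all genes). With 1 array left out the count was 0 to 7 (2.03% to 6.25% of all genes), with 18 to 44 genes below 0 and medians from -0.36 to 0.021. On scan day 2, 3 passed with median centring (22.1%) and 1 with 4 groups fitted on all arrays (22.7%). With 1 array left out the count was 3 to 7 (17% to 28.5% of all genes), with 20 to 39 below 0 and medians from -0.18 to 0.049. The difference between days had 1 gene past the threshold and 22 below 0 with quantile normalization, against 0 and 13. The share of all genes past the threshold was not computed for quantile normalization there.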
